A study of Oryctolagus cuniculus with 3 samples.

Results

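Unstranded intergenic long non-coding transcripts are RNAs assembled from reads between annotated genes for which no strand of origin was given. They were taken from the deposited table of long non-coding transcripts by class code u, the code for a place between reference genes, and by an empty strand entry. The rule found 4098 of 15335 long non-coding transcripts. No expression difference entered the rule.

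Long non-coding RNAs are longer than tRNAs and other small RNAs and encode no protein, and many stay in the nucleus at low levels. In the ovary such RNAs are made both by the growing oocyte, which stores RNA for the early embryo, and by the cumulus cells around it. The strand of an assembled transcript is usually read from the splice sites its reads cross or from the way the library marks strand, and an unspliced transcript has no splice site to tell it. Active promoters and enhancers are known to be read in both directions into short RNAs of low level.

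The RNA came from cumulus-oocyte complexes, the oocyte with its layer of somatic cumulus cells, labelled as ovary, of female IRA rabbits that were 35 days old when they entered rooms with controlled ammonia. The rooms were kept for 4 weeks at under 3 ppm ammonia (the library labelled CG), at 10 ppm (LAC) or at 30 ppm (HAC), and 150 rabbits were divided over them. Each group has 1 library, and the sources used here do not say how many rabbits gave RNA to it, so no difference below has a replicate check and no test was made. Fewer cells of a type and less RNA per cell cannot be told apart in such bulk RNA.

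The libraries hold 70891162 to 72520954 valid reads, of which 90.2% to 93.2% mapped. Spliced reads were 22.01%, 16.2% and 19.9% in the files labelled CG, LAC and HAC. Reads mapped to the sense and antisense strand in nearly equal shares, 42.8% and 42.9% in CG. The labels of LAC and HAC are uncertain: the gene tables in both files are identical over 39681 rows and headed LAC, and their numbers of valid reads are exchanged between blocks. At 96.3% of 3621 members the LAC coverage gave the count of that table within 5%, against 3.01% of 3620 for the HAC coverage. Each library is therefore called by its label, and every direction rests on it. Oocyte and granulosa markers were present in both libraries with gene values: GJA1, the main connexin of cumulus cells, had 4978 CPM (counts scaled to library size) in CG and 4771 in LAC, and BMP15, a growth factor of the oocyte, had 1787 and 342.

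The set consists of short fragments without introns. All 4098 members have 1 exon, each stands alone at its own locus, and none has a reference annotation. They make up 71.2% of the 5754 intergenic long non-coding transcripts and 90.8% of those with 1 exon. The only other transcripts without a strand are 2346 intronic ones, and all 6444 have 1 exon. The members' median length was 518 bases, with quartiles of 293 and 1248. The 416 intergenic transcripts that have 1 exon and a strand had a median of 1960.5 bases, and the 1240 with a strand and 2 or more exons one of 944. Of the members, 1078 (26.3%) were at most 300 bases long and 601 (14.7%) longer than 2000. The authors' coding potential scores were low, with a median CPC score of 0.03 and a maximum of 0.49, and no CNCI score was above 0. The same limits hold over all 15335 transcripts of the table, so low scores do not set the members apart.

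The 3 longest members ran for at least 22233 bases without a splice, each upstream of its nearest coding gene. MSTRG.8920.1 (25159 bases, 32.5 kb upstream of FOXP1, a forkhead transcription factor) had 1.14, 1.64 and 1.84 FPKM in CG, LAC and HAC. FPKM counts fragments per kilobase of transcript, scaled to library size, a level per length. MSTRG.8494.1 (24284 bases, 25.7 kb upstream of SYN2, a synaptic vesicle protein) had 0.9, 2.82 and 0.95 FPKM, so that LAC alone was high. MSTRG.9944.1 (22233 bases, 65.6 kb upstream of TRIO) had 1.62, 3.16 and 1.96. Their length gave them 465 to 1346 fragments in a library, far above the typical member.

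Most members lay in a narrow band of low levels. The median was 1.10, 1.62 and 1.18 FPKM in CG, LAC and HAC. Between 1 and 2 FPKM were 41.7%, 47.1% and 44.2% of members, and only 127, 123 and 117 reached 5 FPKM. Reaching 5 FPKM was more common among intergenic transcripts with a strand, at 16.6%, 14.9% and 19.5%. Unstranded intronic transcripts had medians of 1.05, 1.72 and 1.14 FPKM, close to those of the members in every library. The authors' coverage shows where the band begins: the highest coverage of a member over the 3 libraries was never below 4.66 reads per base, had a median of 10.8, and lay between 8 and 16 in 83.6%. All but 25 members reached a coverage of 8 in at least 1 library, and the library with the highest coverage was LAC for 2074, HAC for 1053 and CG for 971. MSTRG.8494.1 reached 8 in LAC only, so its low CG and HAC values are no separate support for a difference. The part of this floor in the differences between libraries was not tested.

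**Figure D1:**
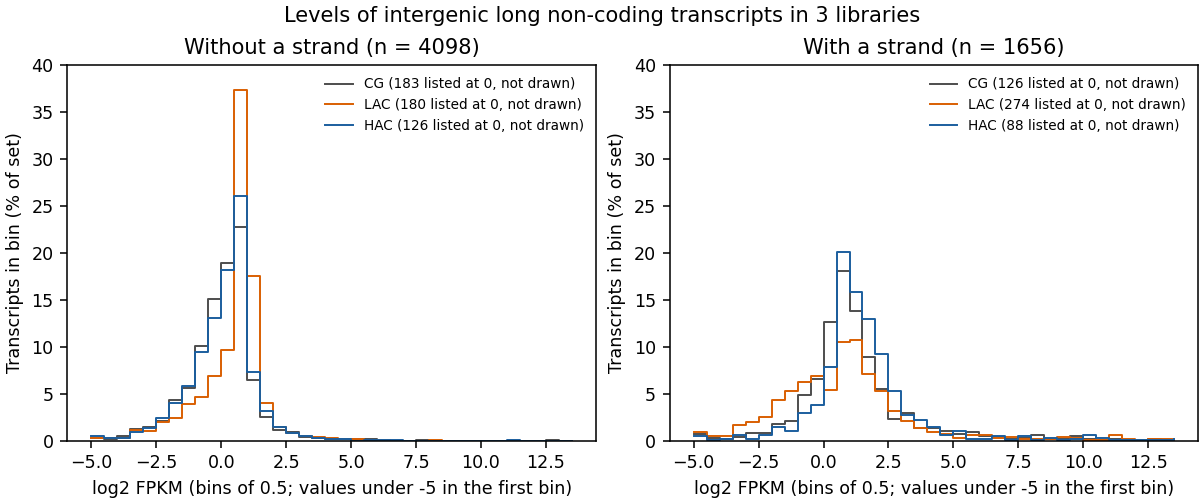
Share of transcripts (y axis, % of the set) per bin of log2 FPKM (x axis) in the 3 libraries, for the 4098 intergenic transcripts without a strand (left) and the 1656 with one (right). The unstranded set forms a narrow peak around 1 to 2 FPKM, where LAC (median 1.62) stands to the right of CG (1.10) and HAC (1.18), and the stranded set reaches further to high values.

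Such levels rest on few fragments. The deposited coverage gave a median of 13.2 fragments per member in CG, 15.3 in LAC and 13.1 in HAC, and a count of 13 has an exact Poisson 95% interval of 6.92 to 22.2. Intervals here and below cover counting error only. No member was listed at 0 in all 3 libraries, but 411 (10.0%) were at 0 in 1 or 2. Of the members 4.47%, 4.39% and 3.07% were at 0 in CG, LAC and HAC. Zeros were more common over all long non-coding transcripts, at 20.6%, 22.8% and 19.4%. LAC alone was at 0 for 143 members, CG alone for 121 and HAC alone for 69. These were short: the median length of the members at 0 only in LAC was 273 bases, against 591 for those above 0 everywhere.

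A few members were far more abundant than the rest and carried most of the summed level. The 4 highest made up 73.8%, 74.8% and 74.9% of the members' summed FPKM in CG, LAC and HAC. MSTRG.195.1 (563 bases, sequence NC_013669.1, 18269868 to 18270430, OryCun2.0) had 6809, 11821 and 7479.9 FPKM in CG, LAC and HAC. It lies 0.289 kb upstream of CCDC107 and, on its other side, 3.78 kb from SIT1. In the human genome RMRP, the RNA of the mitochondrial RNA-processing ribonuclease, is found beside CCDC107, but the files give this member no name and its sequence was not read here. CCDC107 itself had 7.29 CPM in CG and 7.95 in LAC.

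MSTRG.21541.1 (456 bases, 4.19 kb upstream of MAMLD1) had 6561, 8988 and 9124 FPKM in CG, LAC and HAC, with CG the lowest. MSTRG.6143.1 (242 bases, 9.90 kb from the tRNA gene TRNAC-GCA) had 1573, 5588 and 2873, which makes it 3.55-fold higher in LAC than in CG (95% interval 3.47 to 3.64). MSTRG.14966.1 (235 bases, 11.5 kb downstream of LOC100350768) went the other way, with 5842, 1020.0 and 2626. It was 5.73-fold lower in LAC than in CG (5.55 to 5.91) and 2.22-fold lower in HAC (2.18 to 2.27). So even the most abundant members did not share an order of libraries.

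tRNA genes stood beside several of these. tRNAs carry amino acids to the ribosome and are made by RNA polymerase III, as are other short abundant RNAs. Only 8 members (0.195%) lay within 10 kb of any of the 492 annotated tRNA genes, yet 3 of the 8 members with at least 100 FPKM in every library were among them. Besides MSTRG.6143.1 these were MSTRG.12144.1 (730 bases, between TRNAQ-CUG and TRNAN-GUU) with 345, 696 and 402 FPKM, and MSTRG.10457.1 (296 bases, 2.10 kb from TRNAF-GAA) with 151, 202 and 126. The other 5 members near a tRNA gene were low, with a highest value of 2.56 FPKM (MSTRG.22373.1 in HAC). This count was made after the abundant members had been seen.

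In the comparison of LAC with CG, which asks how the low ammonia concentration went with RNA levels, unstranded intergenic transcripts were more often higher than lower in LAC. A transcript was counted when its log2(FPKM + 1) values differed by at least 1 and its higher library had at least 1 FPKM. By this size rule 577 of 4098 (14.1%) were higher and 316 (7.71%) lower, where 9.11% of all 15335 long non-coding transcripts were higher and 8.33% lower. Of the members, 3672 reached 1 FPKM in LAC or CG and could pass. The median difference over all members was 0.31, against 0.04 over all long non-coding transcripts. Unstranded intronic transcripts had 398 higher, 118 lower and a median of 0.44. Intergenic transcripts with a strand and 2 or more exons had the opposite split, with 83 higher, 372 lower and a median of -0.44, and the 1-exon ones with a strand had 39, 34 and 0.13.

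The split between higher and lower turned with the scaling. Scaled by the median ratio over all long non-coding transcripts, which moved LAC against CG by -0.45 on the log2 scale, 314 members were higher and 448 lower. The share of higher calls went from 64.6% to 41.2%, and to 50.4% (399 higher, 393 lower) when only annotated transcripts set the factors, a shift of -0.27. The median difference was then 0.05 or 0.15. Under each scaling the members had a larger share of higher calls than all long non-coding transcripts, whose shares were 52.2%, 31.2% and 39.1%. Unstranded intronic transcripts had still larger shares, 77.1%, 53.8% and 64.5%, so this was not particular to the members. Spliced reads were lower in the file labelled LAC (16.2%) than in that of CG (22.01%). All 3 oocyte markers were lower in LAC (GDF9 with 59.8 against 269 CPM, ZP3 with 31.4 against 147) and all 3 stroma markers higher (DCN with 30.8 against 4.50), while the 3 endothelium and 3 macrophage markers went both ways (TEK with 4.19 against 47.1, MRC1 with 7.97 against 0.739). The part of these in the comparison was not tested.

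**Figure D2:**
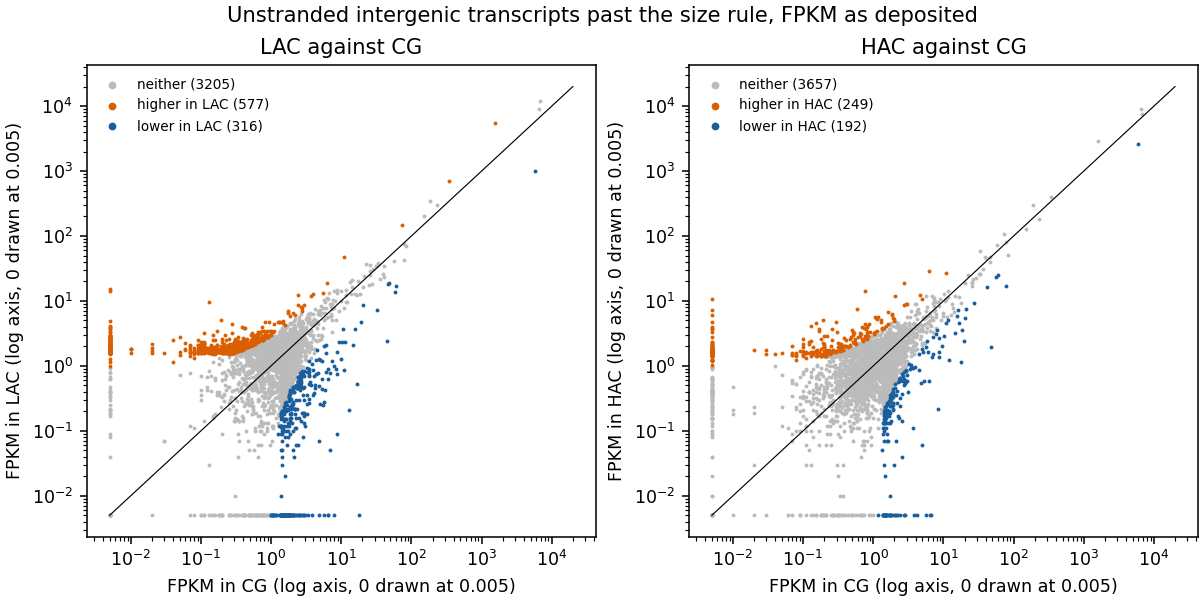
FPKM of each of the 4098 unstranded intergenic transcripts in LAC (left) or HAC (right) on the y axis against CG on the x axis, both on log axes with 0 drawn at 0.005. Coloured points pass the size rule: 577 higher and 316 lower in LAC, 249 higher and 192 lower in HAC.

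Long members differed little but mostly in the same direction, and short members were scattered. Among the 601 members over 2000 bases, with a median of 92.2 fragments in CG, the quartiles of the LAC minus CG difference were 0.09 and 0.60 around a median of 0.38, and 28 were counted as higher and 17 as lower. Among the 1078 of at most 300 bases, with a median of 4.69 fragments, the quartiles were -0.51 and 0.98 around a median of 0.20, and 264 were higher and 121 lower. The share counted as higher fell with length, from 24.5% to 4.66%. Scaled by all long non-coding transcripts, the medians were 0.10 for the long and 0.00 for the short members. Where the higher library reached 5 FPKM, 23 members were higher in LAC and 45 lower. The same count over all long non-coding transcripts was not made, so this split is not read as a trait of the members.

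Single members differed far beyond counting error. MSTRG.16430.1 (3172 bases) overlaps the span of DTWD1, a tRNA-modifying enzyme, and had 12.8, 0.21 and 6.16 FPKM in CG, LAC and HAC. It was 61.1-fold lower in LAC than in CG (34.8 to 113), while DTWD1 had 29.3 CPM in CG and 32.4 in LAC. MSTRG.13292.1 (748 bases, 80.4 kb downstream of OXSM, a mitochondrial fatty acid synthase) had 45.4, 2.39 and 39.9 FPKM and was 19.0-fold lower in LAC (13.6 to 27.8). MSTRG.25115.1 had 16.8, 0.52 and 4.63 and was 32.4-fold lower (11.3 to 110.1). In these LAC was the lowest library by a wide margin.

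Other members were present in LAC and near or at 0 in CG. MSTRG.15412.1 (422 bases, 94.8 kb downstream of LOC108178173) was listed at 0 in CG and had 15.0 FPKM in LAC and 10.6 in HAC. MSTRG.25031.1 (280 bases, on a sequence without a coding gene) was listed at 0 in CG with 14.4 in LAC and 2.36 in HAC. MSTRG.8901.1 (174 kb downstream of RYBP, a Polycomb protein) had 0.13, 9.52 and 4.09 FPKM, a 73.2-fold difference between LAC and CG whose interval of 12.0 to 2778 shows how little 0.955 fragments fix. MSTRG.22599.1 (283 bases) was the reverse case, with 18.0 in CG, 0 in LAC and 1.16 in HAC. MSTRG.25737.1 had 0.19, 5.15 and 0.71 FPKM and was 27.1-fold higher in LAC (6.56 to 214).

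In the comparison of HAC with CG, for the high ammonia concentration, the members passed the size rule about as often as long non-coding transcripts in general. By the size rule 249 (6.08%) were higher in HAC and 192 (4.69%) lower, against 6.21% and 4.34% of all 15335. The median difference was 0.03, and it was -0.24 among members whose higher library reached 5 FPKM, of which 25 were higher and 40 lower. That last count was not made over all long non-coding transcripts. Members over 2000 bases had a median of 0.09, with 7 higher and 14 lower of 601. With factors from all long non-coding transcripts 251 were higher and 231 lower, and with annotated ones 230 and 223, with medians of 0.00 and -0.01. This comparison shares the CG library with the one before.

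A higher level in HAC, resting on 1586 fragments, was measured for MSTRG.110.1 (5464 bases), 2.77 kb upstream of a locus that joins MURC, TMEFF1 and MSANTD3. It had 0.75, 1.36 and 14.1 FPKM in CG, LAC and HAC, and was 18.7-fold higher in HAC than in CG (15.0 to 23.4). The neighbouring locus had 67.7 CPM in CG and 34.5 in LAC. MSTRG.15778.1 (1163 bases, 11.1 kb upstream of DNAH14, an axonemal dynein heavy chain) had 47.9, 18.7 and 1.98 FPKM, so that CG was the highest and HAC the lowest. It was 24.2-fold lower in HAC than in CG (18.0 to 32.7) and 2.56-fold lower in LAC (2.29 to 2.87).

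A few members were listed in 1 library only. MSTRG.11798.1 (265 bases) had 6.09 FPKM in HAC, from 33.3 fragments, and 0 in CG and LAC. MSTRG.1023.1 (343 bases) had 6.54 in CG, from 47.9 fragments, and 0 in LAC and HAC. In all 78 members (1.90%) were at 0 in 2 libraries, and 41 of these were above 0 in LAC alone. The same share over all long non-coding transcripts was not computed, so these counts are not read as a trait of the members. MSTRG.9753.1 (29.3 kb downstream of SEC61G, a subunit of the protein channel of the endoplasmic reticulum) had 0, 2.15 and 7.25 FPKM. MSTRG.20217.1 had 8.33, 0.89 and 0.22 and was 37.9-fold lower in HAC than in CG, with an interval of 6.55 to 1564 because HAC gave 1.02 fragments. MSTRG.11798.1, MSTRG.1023.1 and MSTRG.20217.1 each reached a coverage of 8 in 1 library only. Their low values or zeros in the others are no separate support for a difference.

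In the comparison of HAC with LAC 422 members (10.3%) were higher in HAC and 579 (14.1%) lower, where 11.7% and 8.75% of all long non-coding transcripts were. The median difference was -0.32. Intergenic transcripts with a strand and 2 or more exons had 595 higher, 78 lower and a median of 0.94. Scaled by all long non-coding transcripts, a shift of 0.38, the members' split turned to 538 higher and 307 lower, so that the share of higher calls went from 42.2% to 63.7%. With annotated transcripts, a shift of 0.18, it was 52.3%, from 461 and 421. Over all long non-coding transcripts this share was 57.1% as deposited, 73.4% when scaled by all of them and 65.4% with annotated ones. The members' share was below it under each scaling. Unstranded intronic transcripts had 147 higher and 370 lower as deposited, 198 and 203 scaled by all long non-coding transcripts, and 165 and 272 with annotated ones. This comparison shares its libraries with both others.

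Members with low LAC values led it upward. MSTRG.25445.1 had 4.66, 0.77 and 12.2 FPKM in CG, LAC and HAC, and was 15.9-fold higher in HAC than in LAC (6.18 to 47.5). MSTRG.26340.1 (839 bases) had 6.80, 0.77 and 12.1 and was 15.7-fold higher (9.05 to 31.8). Both lie on unplaced sequences without a coding gene. Downward, MSTRG.3719.1 (17.2 kb upstream of SLIT3, a guidance ligand) had 2.44, 12.4 and 1.16 FPKM and was 10.7-fold lower in HAC (4.76 to 31.0). MSTRG.12806.1, 3.42 kb downstream of SPATA6, a gene of sperm formation, had 4.26, 5.02 and 0, and MSTRG.13626.1 had 2.20, 5.29 and 0.

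**Figure D3:**
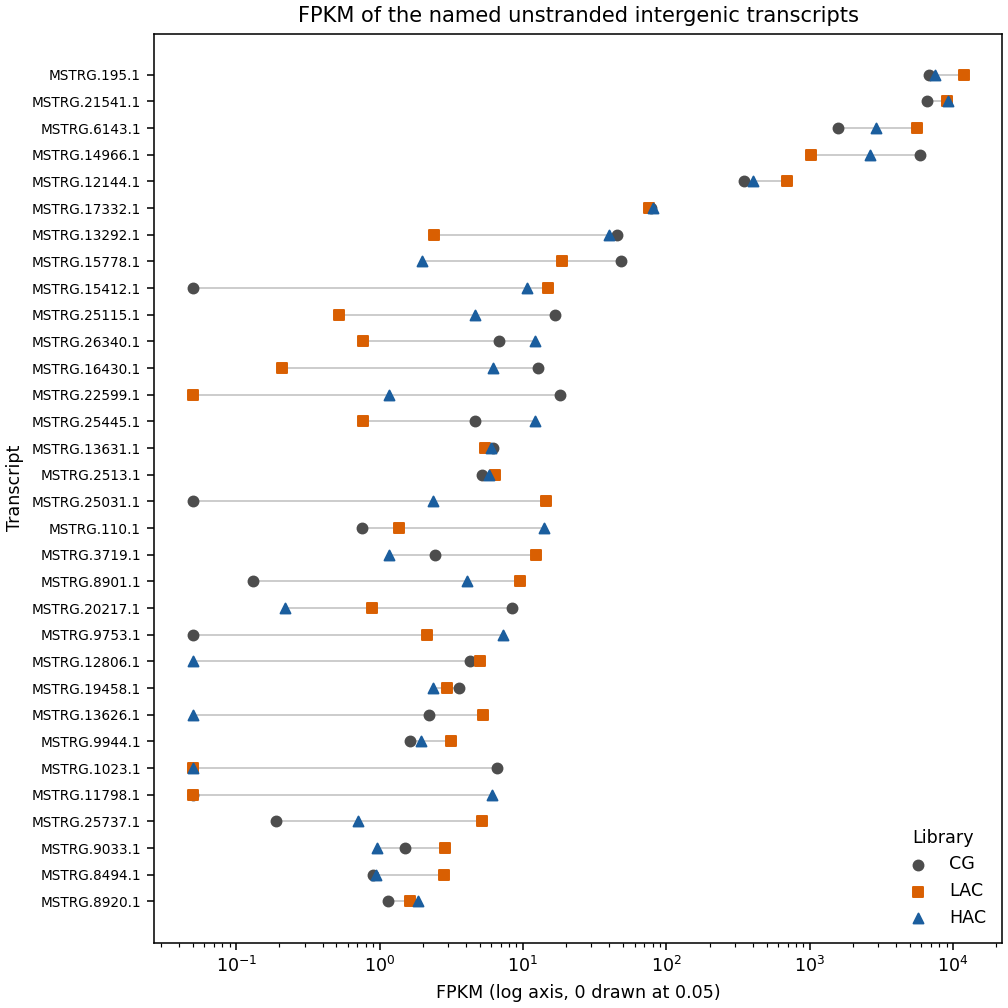
FPKM (log x axis, 0 drawn at 0.05) of the 32 transcripts named by rule (y axis, sorted by mean) in CG (circles), LAC (squares) and HAC (triangles), with a grey line from the lowest to the highest library. The 5 most abundant lie above 300 FPKM, and wide lines such as that of MSTRG.13292.1 (45.4, 2.39 and 39.9) stand beside narrow ones such as that of MSTRG.17332.1 (78.3, 75.1 and 80.8).

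Over the 3 libraries LAC most often stood apart, among the members as among all long non-coding transcripts. The values of a member ranged over at least 1 on the log2(FPKM + 1) scale in 1567 (38.2%, against 30.5% of all long non-coding transcripts) and over at least 2 in 95. Among the 1567 the library farthest from the other two was LAC in 879 (56.1%), HAC in 409 and CG in 279. Over all long non-coding transcripts it was LAC in 2463 of 4678 (52.7%), a share near that of the members. LAC was above both others in 625 of its cases and below both in 254. Scaled by all long non-coding transcripts LAC stood apart in 690 of 1408, above in 332 and below in 358. With annotated transcripts it did so in 741 of 1432, above in 437 and below in 304, so the direction turned under the first scaling only. For intergenic transcripts with a strand LAC stood apart in 480 of 984, above in 92 and below in 388. Some abundant members hardly moved: MSTRG.17332.1 had 78.3, 75.1 and 80.8 FPKM in CG, LAC and HAC, MSTRG.13631.1 had 6.13, 5.41 and 6.02, and MSTRG.2513.1, 5.82 kb upstream of THNSL2, had 5.16, 6.41 and 5.75. The ratio of LAC to CG in MSTRG.17332.1 was within counting error, 1.04-fold lower (0.897 to 1.21).

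Members lay about as far from coding genes as stranded intergenic transcripts did in general, and farther than those with 1 exon. The median distance to the nearest RefSeq coding gene of the files was 26.1 kb over the 3817 members on a sequence that holds one, against 22.4 kb for all 1656 intergenic transcripts with a strand and 8.38 kb for the 416 of them with 1 exon. Within 50 kb were 58.8% of members, 57.2% of the stranded and 68.0% of the stranded 1-exon transcripts. Within 10 kb of a coding gene were 1212 members (29.6%), 669 upstream, 441 downstream and 102 overlapping the span that the gene table gives. Up to 2 kb from a gene 251 were upstream and 29 downstream. In the scheme of these class codes, fragments just downstream of a gene have a code of their own, p, and the table holds no transcript with it, so this imbalance is not read as a finding. From 2 to 10 kb the sides were even, with 418 upstream and 412 downstream. From 10 to 50 kb 852 were upstream and 344 downstream (71.2% upstream, and 60.0% for 1-exon transcripts with a strand).

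**Figure D4:**
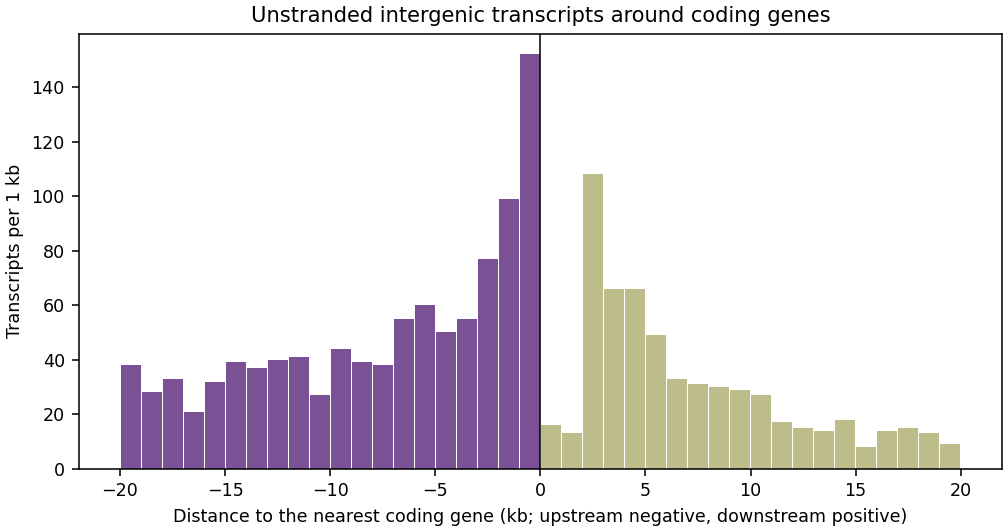
Number of unstranded intergenic transcripts (y axis) per 1 kb of distance from the nearest coding gene (x axis, upstream negative and downstream positive, members that overlap a gene span not drawn). The count rises to 152 in the last 1 kb upstream, is 16 and 13 in the first 2 bins downstream, and is 108 in the next.

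Members just upstream of genes had levels close to those of the whole set. The 152 members within 1 kb upstream of a coding gene had medians of 1.05, 1.67 and 1.25 FPKM in CG, LAC and HAC, and 22 were higher and 6 lower in LAC than in CG (10 and 12 when scaled by all long non-coding transcripts). MSTRG.4773.1, 0.278 kb upstream of the histone methyltransferase gene KMT2D, had 3.55, 3.53 and 3.34 FPKM in CG, LAC and HAC. MSTRG.4575.1, 0.188 kb upstream of NSFL1C, a cofactor of the ATPase p97, had 2.97, 2.41 and 8.85, with HAC the highest. These 2 examples were chosen after their values had been seen.

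Few members differed together with the gene beside them. Over the 1212 pairs of a member and its coding gene within 10 kb, the LAC minus CG differences had a Spearman correlation of 0.18 across pairs, which fall on 908 genes, come from the same 2 libraries and are given as a description. Of the 1212 members 148 (12.2%) were higher and 62 (5.12%) lower in LAC by the size rule, against 9.11% and 8.33% of all long non-coding transcripts. In 25 pairs both member and gene differed by at least 1, in 16 of them in the same direction. The direction was the same in 7 of 7 such pairs within a gene span, 6 of 14 upstream and 3 of 4 downstream. The 102 pairs within a gene span fall on only 38 genes. How many genes the 7 pairs cover was not counted, so they are not read as repeated agreement. None of the 27 oocyte genes, 20 granulosa genes and 13 cumulus expansion genes listed for this tissue and present in the files was the nearest coding gene of a member within 10 kb. The share that the 908 genes make up of all coding genes was not computed, so this absence is not read as a finding. MSTRG.9033.1, 3.27 kb upstream of the laminin gene LAMA1, had 1.50, 2.85 and 0.96 FPKM in CG, LAC and HAC, while LAMA1 had 271 CPM in CG and 292 in LAC. MSTRG.19458.1, 4.47 kb downstream of the urea cycle gene OTC, had 3.59, 2.96 and 2.37 FPKM beside an OTC level of 0.382 and 0.54 CPM.

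Members came in runs along the genome. With gaps of at most 10 kb, 589 runs of 2 or more held 2111 members (51.5%), and 117 of these runs had 5 or more. Neighbours had similar differences: across pairs of adjacent members the LAC minus CG differences had a Spearman correlation of 0.47 at gaps of up to 1 kb (362 pairs). It was 0.29 at 3 to 10 kb (630 pairs), 0.30 at 10 to 100 kb (602 pairs) and 0.03 beyond 100 kb (1496 pairs). The similarity thus did not end at the gap of 10 kb that bounds a run. For HAC minus CG the values at these gaps were 0.31, 0.21, 0.19 and 0.01. The pairs share their libraries and are not independent, and whether the members of a run are pieces of 1 longer transcript was not tested. The median LAC minus CG difference was above 0 in 104 of the 117 runs (79 when scaled by all long non-coding transcripts), and the HAC minus CG median in 75. The runs described next were chosen after their values had been seen.

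The sequence NC_013690.1 held a region of 37 members in a pair of adjacent runs over 236 kb (14837577 to 15074018, OryCun2.0), at least 211 kb from IL1RAPL1, a synaptic adhesion gene. Their median was 0.64, 1.80 and 0.71 FPKM in CG, LAC and HAC, and LAC was the highest library in 36 of 37. LAC values ran from 1.16 to 2.70 and CG values from 0 to 1.16. All but 25 members of the whole set reached a coverage of 8 in at least 1 library. No CG value in this region was high enough for that, so these members are in the set through another library, mostly LAC. The low CG values are therefore no separate support for a difference, and the part of this floor was not tested. In the run of 24 members the median difference between LAC and CG was 0.83 as deposited and 0.58 scaled by all long non-coding transcripts, where LAC was still the highest in 22 of 24.

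A smaller run of 5 members over 28.3 kb on NC_013669.1, which begins with MSTRG.545.1 and whose 5 members all overlap the span of LOC100355671, was listed at 0 in CG throughout. Its LAC values were 2.59, 2.02, 2.76, 2.20 and 3.96 FPKM and its HAC values 0.16, 0.23, 0.5, 0.3 and 0.29, in order along the sequence. All 5 were thus high in LAC alone, the only library in which they could reach the coverage of 8 that nearly all members had. Their shared direction is a description and no support for a difference. The run of 7 members from MSTRG.649.1, over 27.3 kb on the same sequence and 47.2 kb from LOC108176781, had the opposite order, with medians of 1.78, 0.39 and 1.05 FPKM in CG, LAC and HAC. CG was the highest and LAC the lowest library in 7 of 7, and the median LAC minus CG difference was -1.05 as deposited and -1.20 scaled by all long non-coding transcripts. Here CG was the only library in which the members could reach that coverage, so the same limit holds.

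**Figure D5:**
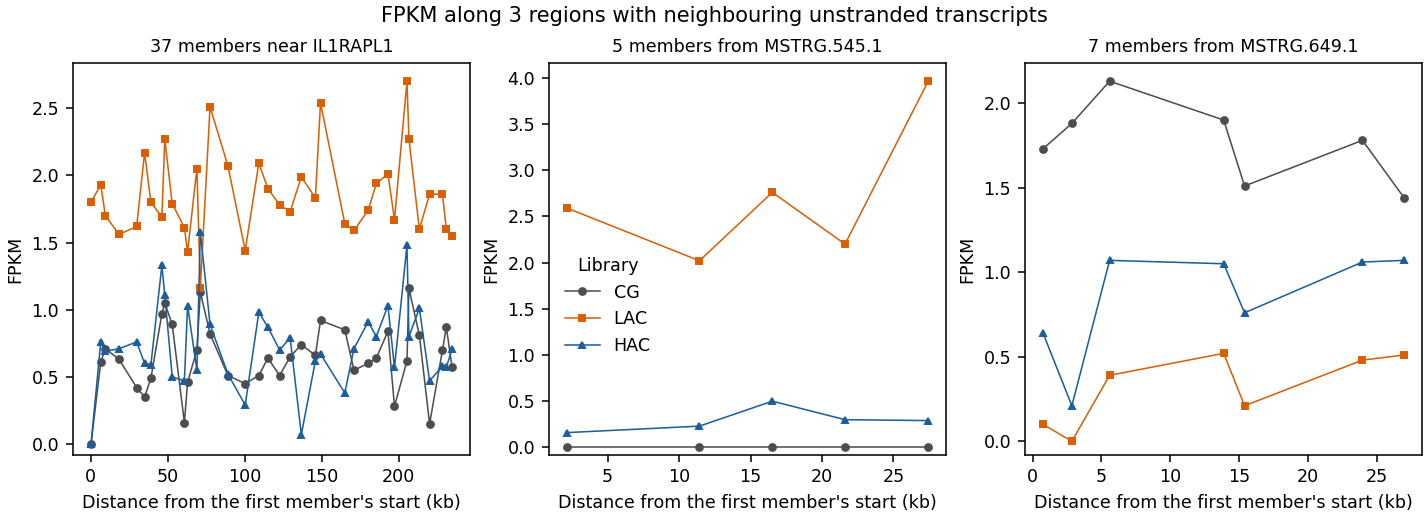
FPKM (y axis) of neighbouring unstranded intergenic transcripts against the distance from the first one's start (x axis, kb) in the 3 libraries, in a region near IL1RAPL1 (left), in the run from MSTRG.545.1 (middle) and in that from MSTRG.649.1 (right). LAC is the highest in 36 of 37 members on the left and in all 5 in the middle, and the lowest in all 7 on the right.

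The runs of 26 and 25 members, more than in any other run, differed less between LAC and CG as deposited. They were exceptions as deposited only: of the 23 runs of 10 or more members, 21 then had a median LAC minus CG difference above 0. Scaled by all long non-coding transcripts, some others of the 23 were below 0 as well, while the rest were not. Examples are the runs from MSTRG.21470.1 (-0.22) and MSTRG.11503.1 (-0.21). The run with the most members, 26 over 127 kb on NC_013682.1, 554 kb from the lipase gene LIPI, had medians of 1.29, 1.25 and 1.40 FPKM in CG, LAC and HAC. LAC was the lowest library in 11 of its 26 members as deposited and in 19 scaled by all long non-coding transcripts, where the median LAC minus CG difference went from -0.03 to -0.27. The next, 25 members over 117 kb beside CDH18, a cadherin gene, had 1.05, 0.86 and 1.46, with LAC the lowest in 16 and HAC the highest in 17. Under the same scaling LAC was the lowest in 19 of these 25, and the median LAC minus CG difference went from -0.20 to -0.36. Over whole sequences the median LAC minus CG difference ran from 0.04 on NC_013686.1 (72 members) to 0.65 on NC_013690.1 (116 members) among the placed chromosomes. The 1205 members (29.4%) on unplaced sequences cannot be given a chromosome here.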

How the data were processed

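RNA of 3 libraries was depleted of ribosomal RNA and its second strand marked with dUTP, per the labels' protocols. fastp, HISAT2 and the build OryCun2.0 are named in the submitters' processing notes, and the assembly and abundance steps are not given in the sources used here. The authors deposited per transcript an FPKM value, a coverage signal (mean depth, not scaled) and CPC and CNCI scores of coding potential. Estimated counts per locus, deposited in the gene table, were scaled here to CPM by their total, for CG and LAC only. The second copy of that table (2 columns of per-sample values) was left unused.

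Differences are log2(FPKM + 1), which understates the change of low transcripts. Fragments are coverage times length over 300 bases, and folds are FPKM ratios with exact binomial 95% intervals that cover counting error only. No fold was given against 0. Scaling factors are medians of ratios over 10841 transcripts (all) or 1133 (annotated). Members with coding gene neighbours were placed by the files' own coordinates. Named transcripts are the 5 with the highest mean, for each comparison and direction the 4 that differ most (at least 5 FPKM), the 3 longest, the 3 most abundant with a 0, the 3 with the lowest range (at least 5 FPKM in every library), and those near listed genes. The members and lists were chosen with earlier results of these data known. With 1 library per group no test or p-value was computed. Python 3.11.15, pandas 2.3.3, numpy 2.4.6, SciPy 1.17.1 and matplotlib 3.10.9 were used. Some members beside coding genes are not reported here by name.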

Additional observations from a re-analysis of the deposited data

How the results depend on the processing

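No paired analysis was possible because each group has 1 library. Median-of-ratios factors over all long non-coding transcripts gave 314 members higher in LAC than in CG (median 0.05) and 307 lower in HAC than in LAC (median -0.09). Factors over annotated transcripts, chosen after seeing the data, gave medians of 0.15 for LAC against CG, -0.20 for HAC against LAC and -0.01 for HAC against CG, which was reversed. A pseudocount of 0.1 FPKM gave 1273 higher and 584 lower in LAC than in CG (median 0.51), 621 and 527 for HAC and CG, and 731 and 1279 for HAC and LAC (median -0.49), with CG, LAC and HAC standing apart in 629, 1529 and 712. At least 5 FPKM in the higher library left 23 and 45 (median 0.11), 25 and 40 (median -0.24, reversed), and 42 and 35 (median -0.44), with 31, 50 and 43 apart. At least 50 fragments in the highest library, chosen after seeing the data, left 81 and 72, 41 and 42, and 95 and 80, with 47, 138 and 66 apart. The filters and the pseudocount change counts by construction, and the cause of the shifts under the scalings was not tested. No filter and sums per locus moved none of the 12 results recomputed. Members near a coding gene were 804 at 5 kb and 2408 at 50 kb. Short members rest on few fragments, and a 0 in them is not absence.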
